A study of Homo sapiens with 12 samples.

Results

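The human genome holds many long intergenic non-coding RNAs, which are transcribed from the stretches between protein-coding genes. Those that have no other name carry a running number after the letters LINC. The 66 LINC rows described here are the rows of the deposited count table whose name is LINC followed by digits only and whose counts add up to at least 600 over the 12 labelled libraries, with LINC01709 left out. They are 66 of 61255 rows in the table and of 2235 rows with such a name, of which 2168 lay under 600 counts. The rows were chosen by their summed counts, so their levels are given as a description. The rule itself uses no contrast between groups, but it was set with earlier results of these data known. A row can also reach 600 counts through a line in which it is high. The members just inside the limit were LINC01465 and LINC02326 with 637 counts each and LINC00867 with 619, and the rows just outside it were LINC02983 with 593, LINC00963 with 581 and LINC02805 with 577.

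All libraries came from Huh-7.5, a hepatocellular carcinoma cell line, and every group carried an APEX construct, an engineered peroxidase used to label its surroundings in living cells. The 3 lines are labelled APEX-NES, APEX-NLS and APEX-G3BP1, after a nuclear export signal, a nuclear localisation signal and the stress granule protein G3BP1. Each was sampled mock-treated and exposed for 45 minutes to 0.5 mM of sodium arsenite, which gives 6 groups of 2 replicates. No line without a construct is among the 12 libraries, and the labels do not say whether a line is 1 clone or whether replicates were separate cultures. The p-values below therefore measure only the spread between these samples, which may be technical. A line and its construct cannot be told apart in these data.

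Long intergenic RNAs are usually spliced and polyadenylated like messenger RNAs, but many are made at low rates, stay in the nucleus and are short-lived. A change in the transcription or the decay of such an RNA can therefore show in total RNA sooner than in a stable messenger RNA. Arsenite is a trivalent arsenical that binds protein thiols, causes oxidative stress, halts translation and gathers untranslated messenger RNA in stress granules, for which G3BP1 is a nucleating protein. Few of the 66 LINC genes have a well-described function. LINC01018 is known as a liver-enriched RNA, and LINC01138 has been studied as a growth-promoting RNA in liver cancer.

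The libraries held 1090308 to 1461067 counts, so that 3 counts, the limit that a count of 0 allows, stood for 2.08 to 2.88 CPM, the usual depth-scaled count, here with edgeR's TMM factors. That limit and all counts cover counting error only. Several genes that Huh-7.5 cells are known for were nearly uncounted: the row of ALB, the albumin gene, held 11 to 29 counts per library, APOA1 16 to 39, AFP 25 to 95, TTR at most 1, and APOH 0 in all. The 11 hepatocyte genes that were looked up summed to 278 to 408 counts in mock and 320 to 493 after arsenite, and their part in the changes below was not tested. Fibroblast, leukocyte and endothelial genes summed to at most 3, 7 and 14 counts. MALAT1, a nuclear RNA that most cells hold in large amounts, had 16 to 37 counts, whereas TALAM1, the row of the opposite strand of that locus, had 44233 to 81932. Of the rows that arsenite usually induces, HMOX1 had 1 to 4 counts and DNAJB1 193 to 382. The kit keeps the strand of the RNA, and the strand setting used in counting is not given in the sources used here. A LINC name below is thus the name of a row, and from which strand the counted RNA came was not tested.

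Of the 66 LINC names, 65 were placed on GRCh38 with GENCODE release 29, on 20 chromosomes, and LINC03009 was not placed. Their exons covered 436 to 14336 bases (median 2381), and the GC content of the longest transcript ran from 30.7% to 58.5% (median 42.8%). GENCODE typed 58 of them as lincRNA. With genes of small RNAs left aside, 23 had no other gene over their exons, among them LINC00910, in which the snRNA pseudogene RNU2-4P covers 192 bases on the same strand. Of the others, 26 had an exon opposite to an exon of another gene, and 15 met only an intron on the opposite strand. In all, 8 rows shared exon bases with a gene on their own strand: LINC00526, LINC01122, LINC00987 and LINC01138 of the 26, LINC00174, LINC01409 and LINC02694 of the 15, and LINC00863, which had no gene opposite to it. How reads in such shared bases were counted is not given in the sources used here, so the counts of these 8 rows are uncertain.

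RefSeq (GRCh38.p14) promoter windows, 250 bases before to 50 bases after a gene's start, were found for 48 of the 66 names, in 51 windows. The 4 shown here belong to 2 LINC rows that rose and 2 that fell after arsenite in every line, with any matched motif in capitals, so that the letters can be read beside the values below. They are LINC01943 (chr2:87459047-87459346, minus strand), LINC01504 (chr9:72305186-72305485, plus strand), LINC02669 (chr10:3502789-3503088, minus strand) and LINC01409 (chr1:778548-778847, plus strand).
LINC01943: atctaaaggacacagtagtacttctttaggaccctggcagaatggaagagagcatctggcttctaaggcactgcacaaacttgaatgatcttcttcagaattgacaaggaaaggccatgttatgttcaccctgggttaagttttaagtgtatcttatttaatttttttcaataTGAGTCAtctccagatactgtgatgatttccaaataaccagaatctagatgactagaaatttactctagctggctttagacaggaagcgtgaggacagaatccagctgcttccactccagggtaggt
LINC01504: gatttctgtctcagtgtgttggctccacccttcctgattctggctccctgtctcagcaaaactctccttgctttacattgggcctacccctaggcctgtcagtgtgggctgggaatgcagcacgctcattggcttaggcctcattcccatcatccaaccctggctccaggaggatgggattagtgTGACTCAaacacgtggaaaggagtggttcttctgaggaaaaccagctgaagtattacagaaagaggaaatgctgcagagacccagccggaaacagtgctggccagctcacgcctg
LINC02669: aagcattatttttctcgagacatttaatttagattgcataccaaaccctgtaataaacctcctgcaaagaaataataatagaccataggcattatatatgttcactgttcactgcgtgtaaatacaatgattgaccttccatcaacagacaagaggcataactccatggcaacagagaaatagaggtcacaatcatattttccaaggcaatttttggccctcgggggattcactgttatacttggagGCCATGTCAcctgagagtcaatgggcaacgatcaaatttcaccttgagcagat
LINC01409: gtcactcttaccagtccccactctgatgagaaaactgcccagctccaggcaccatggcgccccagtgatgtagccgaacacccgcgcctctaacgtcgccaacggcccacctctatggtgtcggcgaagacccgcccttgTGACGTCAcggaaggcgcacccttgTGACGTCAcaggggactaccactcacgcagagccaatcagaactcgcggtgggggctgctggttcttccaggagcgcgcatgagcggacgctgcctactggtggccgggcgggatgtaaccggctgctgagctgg
The capitals mark AP-1 letters, the site of the stress-activated JUN and FOS factors, in the windows of LINC01943 and LINC01504. In LINC02669 they mark the antioxidant response element, the site of the oxidant-sensing factor NRF2, and in LINC01409 a pair of CRE sites, bound by the CREB and ATF factors. None of the motifs searched was found in the windows of the other rows among the 6 largest rises that had a window, LINC01465, the largest rise, LINC02951 and LINC00847. Of the largest falls not shown, LINC02487 had TATA and antioxidant response element letters and LINC02042 a heat shock element. AP-1 was searched as TGACTCA and TGAGTCA, CRE as TGACGTCA, the antioxidant response element as TGACNNNGC, the heat shock element as GAANNTTC and the TATA box as TATAAA, each on both strands. AP-1 letters stood in 13.7% of the 51 windows and in 4.9% of all 35116 windows of the table, and TATA letters in 29.4% and 11.5%. The shares were 3.9% and 1.8% for CRE, 3.9% and 6.8% for the heat shock element and 15.7% and 13.3% for the antioxidant response element. A match is a run of letters and no measure of a factor's binding, and it bears on a row only if the row's counts come from the LINC strand.

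The LINC rows spanned 619 to 37481 counts, with a median of 1459. LINC02067 on chromosome 3 alone gave 37481 of their 156930 counts. Next came LINC00645 with 12662, LINC02669 with 6703, LINC01504 with 5075, LINC01013 with 4047, LINC01943 with 3499, LINC01981 with 3346 and LINC02893 with 3303. Per kilobase of exon the order changed: LINC02067 stood first with 13174 counts, LINC02669 followed with 8057, then LINC02637 with 5365, LINC01764 with 3544 and LINC00645 with 3465, and LINC01138 came last with 94.5. The row count of LINC02067 is uncertain, because its counts and those of the row ENSG00000269888 differed by only -69 to 56 in each library. In GENCODE, 119 of the 2845 exon bases of LINC02067 lie inside an intron of ENSG00000269888 on the same strand. The exons of the 2 genes share 0 bases, and the cause of the near-equal counts was not tested. The 66 rows summed to 9558 to 11657 CPM per library with LINC02067, and to 7159 to 8364 CPM without it.

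Arsenite lowered more of the LINC rows than it raised. Averaged over the 3 lines, 31 of 66 passed the test (edgeR's quasi-likelihood test, Benjamini-Hochberg adjusted p under 0.05 over all 13108 rows tested), 9 of them higher and 22 lower. Over all rows tested 38% passed, 19.4% higher and 18.6% lower, and among rows with at least 600 counts 48.5% passed, 26.1% higher and 22.4% lower. The median log2 fold change was -0.0606 for the LINC rows, -0.0122 for all rows tested and 0.0333 for rows with at least 600 counts. In 28 of the 31 the fitted change had 1 sign in all 3 lines. LINC00174 was the only one to pass a limit of 2-fold. In bulk RNA, fewer cells that hold an RNA and less of it per cell cannot be told apart.

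**Figure D1:**
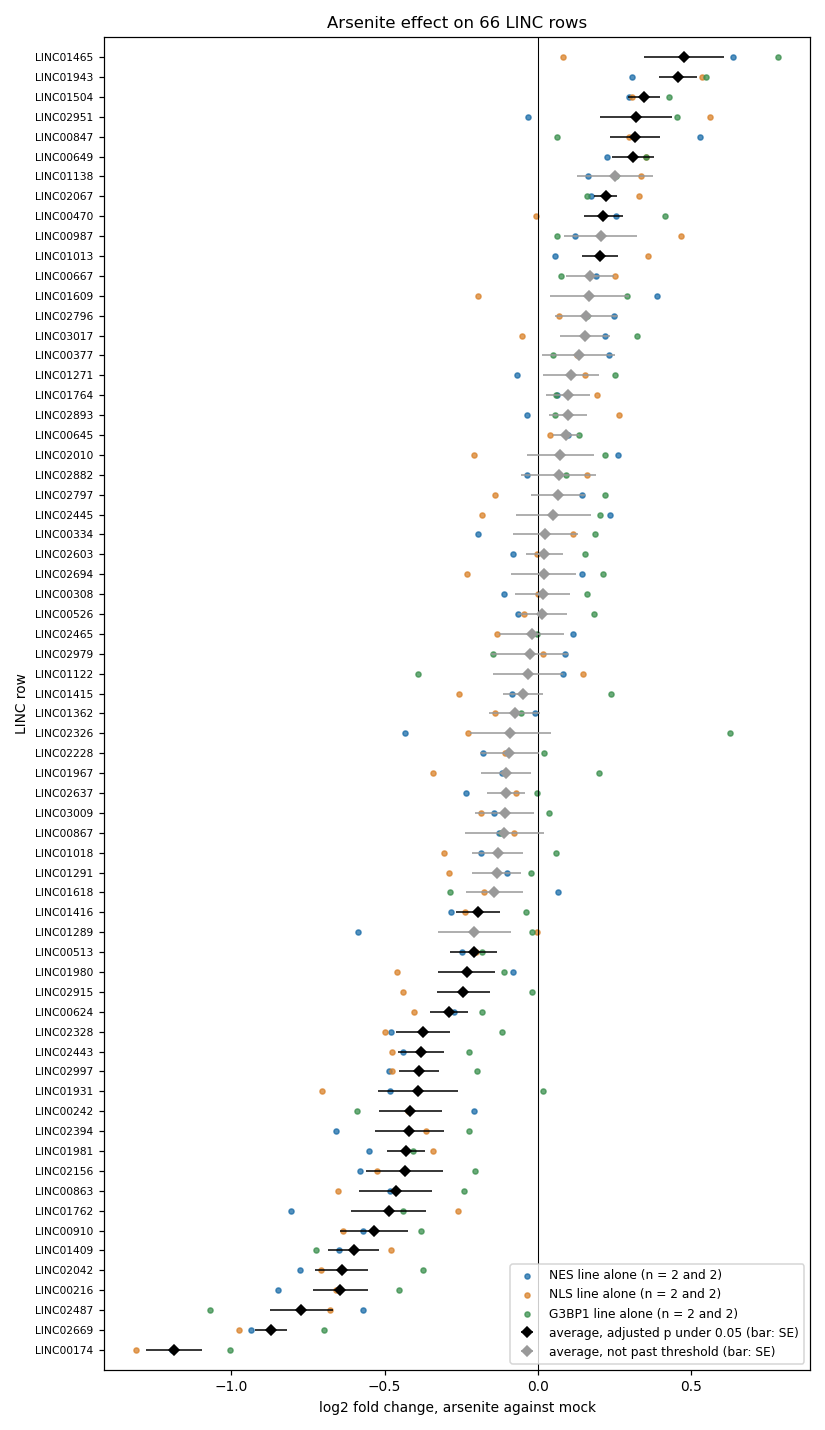
Log2 fold change of arsenite against mock (x axis) for each of the 66 LINC rows (y axis), sorted by the average over the lines. Diamonds are the averages with their standard errors, black where the adjusted p is under 0.05, and small points are the separate lines; black diamonds lie from -1.19 for LINC00174 to 0.48 for LINC01465, 22 of them left of zero and 9 right of it.

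The 9 rows that rose were LINC01465, LINC01943, LINC01504, LINC02951, LINC00847, LINC00649, LINC02067, LINC00470 and LINC01013. LINC01943 lies on chromosome 2 (87439523 to 87459044, minus strand), with exons opposite to those of CYTOR, a long non-coding RNA studied in many tumours. Its mock levels were 208 and 237 (NES), 131 and 172 (NLS), 227 and 200.2 (G3BP1) CPM. After arsenite they were 265 and 286 (NES), 212 and 227 (NLS), 310.3 and 314 (G3BP1) CPM. Each treated library stood above both mock libraries of its line, though NLS after arsenite overlapped NES in mock (log2 fold change 0.46, SE 0.06, adjusted p = 6.16e-10).

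LINC01504 lies on chromosome 9 (72305430 to 72343210, plus strand), and the end of the coding gene ZFAND5, which encodes a zinc finger protein that activates the proteasome, is 8.2 kb from it. It measured 323 and 333 (NES), 234 and 228 (NLS), 351 and 314 (G3BP1) CPM in mock libraries. The values after arsenite were 389 and 421 (NES), 267 and 304 (NLS), 447 and 448 (G3BP1) CPM. Both treated libraries were above both mock libraries in each line, with the NLS line lowest throughout (log2 fold change 0.35, SE 0.05, adjusted p = 3.24e-08).

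LINC01465, a little-counted row on chromosome 12 (62601751 to 62603690, minus strand), had the largest fitted rise. It stood at 32.4 and 34.9 (NES), 45.8 and 38.2 (NLS), 28.8 and 29.4 (G3BP1) CPM in mock. Arsenite libraries gave 46.5 and 59.03 (NES), 41.7 and 47.1 (NLS), 52.3 and 48.3 (G3BP1) CPM. The treatments did not overlap in NES and G3BP1, and in NLS they did (log2 fold change 0.48, SE 0.13, adjusted p = 0.00178). LINC00847 on chromosome 5, with exons opposite to HEIH, an RNA described in hepatocellular carcinoma, measured 96.5 and 94.5 (NES), 112 and 113 (NLS), 86.5 and 90.02 (G3BP1) CPM in mock. After arsenite it measured 122 and 156 (NES), 142 and 135 (NLS), 88.3 and 95.9 (G3BP1) CPM. The treatments did not overlap in NES and NLS, and in G3BP1 they did (log2 fold change 0.32, SE 0.08, adjusted p = 0.000868).

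LINC00649 on chromosome 21 stood at 151 and 133 (NES), 135 and 117 (NLS), 137 and 187 (G3BP1) CPM in mock and 175 and 157 (NES), 151 and 170.4 (NLS), 206 and 211 (G3BP1) CPM after arsenite (log2 fold change 0.31, SE 0.07, adjusted p = 0.000139). Its treated libraries were higher than mock in every line, and the G3BP1 line was highest after arsenite. LINC02951 on chromosome 11 went from 54.5 and 56.5 (NES), 45.04 and 37.4 (NLS), 44.2 and 51.4 (G3BP1) CPM in mock to 60.1 and 47.6 (NES), 65.2 and 56.8 (NLS), 54.00 and 76.9 (G3BP1) CPM (log2 fold change 0.32, SE 0.12, adjusted p = 0.0228). In NES its treatments overlapped. The LINC02951 call was lost without the second NLS mock library (log2 fold change 0.25), the first NLS arsenite library (0.28), the first G3BP1 mock library (0.27) or the second G3BP1 arsenite library (0.24), with DESeq2 (0.33), without a filter on low counts (0.31) and with total-count scaling (0.27).

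The most counted row, LINC02067, measured 1937 and 1978 (NES), 2079 and 1961 (NLS), 2955 and 3003 (G3BP1) CPM in mock. After arsenite it stood at 2163 and 2261 (NES), 2492 and 2588 (NLS), 3259 and 3403 (G3BP1) CPM. The change was small and seen in all 3 lines, where no treated library fell below a mock library of its line (log2 fold change 0.22, SE 0.04, adjusted p = 4.27e-07). LINC01013 on chromosome 6 and LINC00470 rose by 0.20 and 0.21 on the log2 scale (adjusted p = 0.0033 and 0.00474, edgeR). LINC00645, the second by counts, was at 803 and 776 (NES), 778 and 778 (NLS), 865 and 883 (G3BP1) CPM in mock and 883 and 804 (NES), 813 and 788 (NLS), 990.0 and 931 (G3BP1) CPM after arsenite and did not pass (log2 fold change 0.09, SE 0.04, adjusted p = 0.0748). It passed when the second NES arsenite library (0.11) or the second NLS arsenite library (0.11) was left out. LINC02893 did not pass either (log2 fold change 0.10, SE 0.06, adjusted p = 0.199).

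The 6 largest falls exceeded the 6 largest rises in size. LINC00174, a long locus on chromosome 7 (66376044 to 66493566, minus strand) with exons opposite to an intron of TPST1 and over exons of 5 pseudogenes on its own strand, had the largest. Its mock libraries gave 159.8 and 163 (NES), 165 and 182 (NLS), 134 and 90.9 (G3BP1) CPM. The arsenite libraries gave 82.3 and 56.4 (NES), 56.9 and 81.8 (NLS), 68.6 and 43.6 (G3BP1) CPM. All 6 treated libraries lay below all 6 mock libraries (log2 fold change -1.19, SE 0.09, adjusted p = 1.77e-21).

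LINC02669 on chromosome 10 (3486894 to 3502838, minus strand) has no other gene over it, and its counts make it the best measured of the falls. Mock libraries gave 578 and 575 (NES), 596 and 580.3 (NLS), 580.4 and 554 (G3BP1) CPM, close to each other in the 3 lines. Arsenite libraries gave 343 and 253 (NES), 322 and 278 (NLS), 353 and 345 (G3BP1) CPM. Every line fell and no treated library reached the lowest mock library (log2 fold change -0.87, SE 0.05, adjusted p = 9.15e-29).

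LINC02487 on chromosome 6 (167679626 to 167696290, minus strand) was at 86.2 and 94.5 (NES), 72.2 and 63.4 (NLS), 120.1 and 98.3 (G3BP1) CPM in mock. It was at 62.97 and 58.2 (NES), 38.7 and 45.7 (NLS), 47.1 and 56.3 (G3BP1) CPM after arsenite. The G3BP1 line started highest and showed the largest fitted fall, -1.07, against -0.57 in NES and -0.68 in NLS (log2 fold change -0.77, SE 0.10, adjusted p = 6.48e-10 for the average). LINC00216 on chromosome 14, a single-exon row of 1126 bases beside PSMA3, stood at 101 and 104 (NES), 110.3 and 114 (NLS), 128 and 108 (G3BP1) CPM in mock and 60.8 and 51.98 (NES), 76.6 and 65.8 (NLS), 96.00 and 76.9 (G3BP1) CPM after arsenite. Mock and arsenite libraries did not overlap (log2 fold change -0.64, SE 0.09, adjusted p = 2.05e-09).

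LINC02042 on chromosome 3 measured 139.9 and 130.1 (NES), 132 and 129.8 (NLS), 101 and 86.3 (G3BP1) CPM in mock. After arsenite its libraries lay within 69.7 to 85.2 CPM. All were under the lowest mock library, one of G3BP1, in which the fall alone did not pass (log2 fold change -0.64, SE 0.09, adjusted p = 5.19e-10). LINC01409 on chromosome 1 (778770 to 810060, plus strand) measured 132 and 143 (NES), 132 and 141 (NLS), 108 and 84.5 (G3BP1) CPM in mock. It measured 81.6 and 94.3 (NES), 90.2 and 105 (NLS), 54.9 and 61.01 (G3BP1) CPM after arsenite. It fell in every line, and mock and arsenite libraries overlapped only across lines (log2 fold change -0.60, SE 0.08, adjusted p = 2.35e-09). LINC01981 on chromosome 3 had 217 to 281 CPM in mock and 164 to 224 CPM after arsenite, and was likewise called lower in each line (log2 fold change -0.43, SE 0.06, adjusted p = 5.31e-09).

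The other 15 rows that fell had log2 fold changes of -0.53 (LINC00910) to -0.19 (LINC01416). In 9 rows no arsenite library overlapped a mock library across the 3 lines, and all 9 were lower after arsenite: LINC00174, LINC02669, LINC02487, LINC00216, LINC02042, LINC00910, LINC00863, LINC02997 and LINC00624. Over all rows tested 11.4% had such separate treatments, and 13.2% among rows with at least 600 counts. The 35 rows that did not pass had fitted values between -0.21 (LINC01289) and 0.25 (LINC01138).

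**Figure D2:**
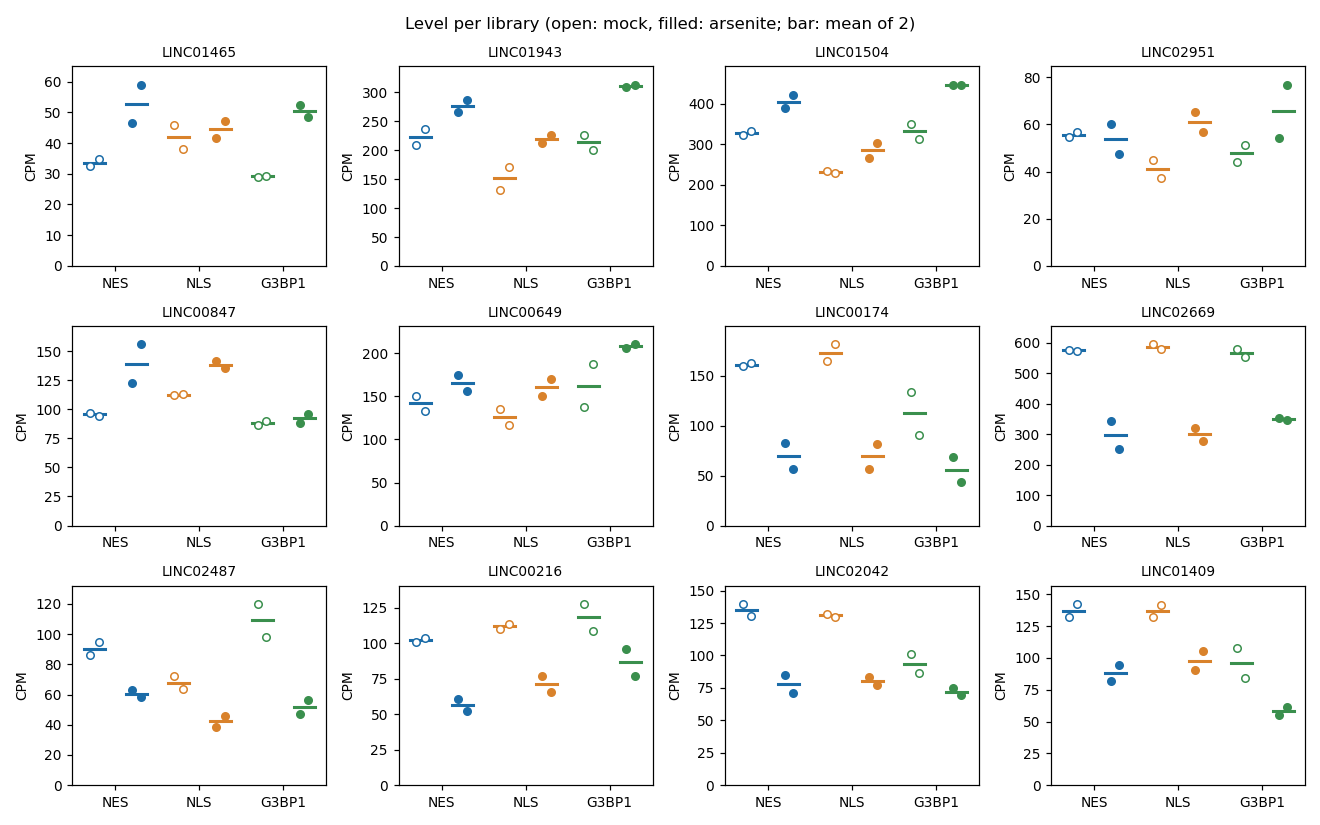
CPM in each library (y axis, from zero) for the 6 largest rises and the 6 largest falls, by line (x axis), with mock as open points, arsenite as filled points and bars at the mean of 2 replicates. In LINC02669 and LINC00174 all filled points lie under all open points. In LINC01943 and LINC01504 all filled points lie above the open points of their own line. There the filled points of NES and G3BP1 also lie above all open points, and those of NLS do not.

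Taken line by line, arsenite changed 21 LINC rows in NES, of which 5 rose and 16 fell. It changed 24 in NLS, of which 7 rose and 17 fell, and 13 in G3BP1, of which 6 rose and 7 fell. Over all rows tested 20.3% passed in NES, with 10.9% rising and 9.41% falling. The shares were 17.8% in NLS, with 9.67% rising and 8.14% falling, and 16.4% in G3BP1, with 9.22% rising and 7.15% falling. Among rows with at least 600 counts the shares were higher: 28% in NES (14% rising, 14% falling), 27.6% in NLS (14.1% rising, 13.4% falling) and 24.1% in G3BP1 (13.9% rising, 10.3% falling). The 13 calls in G3BP1 make 19.7% of the LINC rows, those in NES 31.8% and those in NLS 36.4%. These counts leaned on single libraries: NES gave 12 without its second mock library and 8 without its second arsenite library. NLS gave 15 without either mock library and 13 without its second arsenite library, and G3BP1 gave 7 without its first mock library. With total-count scaling the G3BP1 calls were 4 higher and 8 lower. LINC02067, LINC01504 and LINC01943 were called higher in all 3 lines, and LINC02669, LINC01981, LINC00174, LINC01409, LINC00216 and LINC02487 lower in all 3. Such agreement was met by 7.06% of all rows tested and by 12.3% of those with at least 600 counts. A further 8 rows were called in 2 lines, 15 in 1 and 34 in none, as counts for which no share of all rows is given.

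By edgeR's joint interaction test 0 LINC rows had an arsenite effect that differed among the lines (adjusted p under 0.05), and 0.183% of all rows did. At an unadjusted p under 0.05 there were 5, LINC01415, LINC02326, LINC00470, LINC01967 and LINC02669, which is 7.58% of the LINC rows against 8.37% of all rows tested. DESeq2 also called 0, with 1 at an unadjusted p under 0.05 (1.52%, against 1.65% of all rows). LINC02326 on chromosome 14 had the widest spread of these 5: it measured 47.1 and 45.7 CPM in mock and 33.6 and 35.2 CPM after arsenite in NES, 57.5 and 58.03 CPM in mock and 56.1 and 42.95 CPM after arsenite in NLS and 21.1 and 26.6 CPM in mock and 33.4 and 40.4 CPM after arsenite in G3BP1. Its fitted effects were -0.43, -0.23 and 0.63 on the log2 scale, none of them past the test.

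The LINC rows can also be counted by where their exons lie, with no test of the differences. Of the 26 rows with exons opposite to exons of another gene, 6 rose and 5 fell, with a median log2 fold change of 0.0672. Of the 15 that met only an intron on the opposite strand, 0 rose and 8 fell, LINC00174, LINC01409 and LINC01981 among them, with a median of -0.207. Without the 3 that also share exon bases on their own strand, 0 of 12 rose and 6 fell, with a median of -0.2. Of the 23 with no gene but small RNA genes over them, 3 rose and 8 fell, with a median of -0.109.

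The LINC rows were chosen for their counts and the rows opposite to them were not, so that a LINC row standing above its opposite row follows in large part from that choice and supports nothing here. As a description, for 36 pairs of a LINC row and a row with exons opposite to it, held by 26 LINC rows, the LINC row had a higher count per kilobase of exon than all its partners in 23, and in 17 pairs it was at least 10 times higher. The median ratio was 7.9. LINC01764 has 73.1% of its exon length opposite to exons of UCA1, a long non-coding RNA described in bladder cancer, and held 3544 counts per kilobase against 23.1 for UCA1. LINC01943 held 2372 against 2.32 for CYTOR, with 27.5% of its exon length opposite. LINC02603 has 85.7% of its exon length opposite to MIRLET7A1HG, the host gene of let-7 microRNAs, and held 2426 counts per kilobase against 4.88.

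LINC00847 held 688 counts per kilobase against 45.4 for HEIH, LINC01271 held 565 against 3.98 for LINC01270, and LINC02951 held 1885 against 2.47 for RAB30-DT. The exceptions were LINC00667, at 259 counts per kilobase against 882 for LINC00526, LINC01980, at 497 against 621 for LINC01967, and LINC01138, at 94.5 against 619 for ENSG00000225871. The change of a LINC row after arsenite could not be set beside that of UCA1 with any precision, since UCA1 had 3 to 13 counts per library. CYTOR, HEIH, MIRLET7A1HG, LINC01270 and RAB30-DT were too low to be tested. In all, 15 opposite rows that are not LINC rows of the 66 were tested, with 81 to 1232 counts, and of these 0 rose, 2 fell and 13 did not pass. PSMA3-AS1, the antisense row of the proteasome subunit gene PSMA3, fell (log2 fold change -0.34, SE 0.09, adjusted p = 0.00168), as did LINC00216 opposite to it (-0.64). ENSG00000224481 fell as well (log2 fold change -0.46, SE 0.19, adjusted p = 0.0379), and LINC01138 opposite to it did not pass (0.25). Since the strand setting is not known, the counts of these LINC rows and RNA of the opposite genes cannot be told apart.

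**Figure D3:**
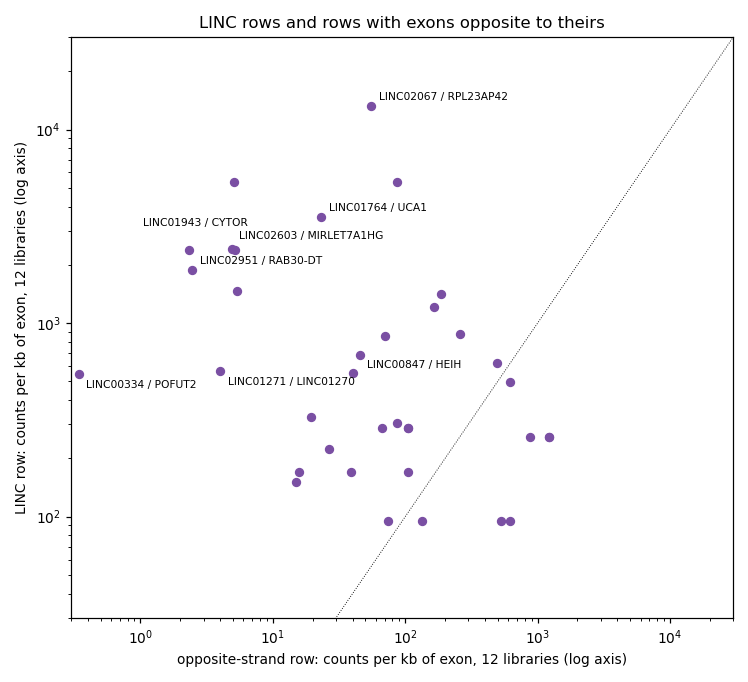
Counts per kilobase of exon summed over the 12 libraries for a LINC row (y axis, log scale) and for a row with exons on the opposite strand of it (x axis, log scale), 1 point for each of 36 pairs, with equality dotted. Most points lie above the dotted line, with LINC01764 and UCA1 at 3544 and 23.1.

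The lines differed in many of the LINC rows, at shares near those of all rows with at least 600 counts. Tested jointly over both treatments, 38 of 66 (57.6%) differed among the lines, against 32.8% of all rows and 53.8% of rows with at least 600 counts. The G3BP1 line differed from the mean of NES and NLS in 33 (50%), of which 23 were higher and 10 lower. Over all rows 28.7% did, 15.3% higher and 13.4% lower, and among rows with at least 600 counts 47.1%, 29% higher and 18% lower. This split depends on the scaling: with total counts in place of TMM factors, 15 were higher and 17 lower, and the median of all rows shifted from -0.0077 to -0.117. NLS differed from NES in 12 rows (18.2%), 6 higher and 6 lower. The shares were 10.9% of all rows (4.82% higher, 6.13% lower) and 19.8% of rows with at least 600 counts (6.56% higher, 13.2% lower). With total-count scaling NLS differed from NES in 17 LINC rows, 11 higher and 6 lower.

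The differences between lines were modest. The median distance between the highest and the lowest line was 0.342 on the log2 scale. The highest line held 34.1% to 48.1% of the summed line means. When their highest line is left out, 44 of the 66 rows keep 600 counts. Of the rows shown next for their line differences, LINC01409 (1555 counts) and LINC01018 (1594) do so. LINC02979 (677), LINC02445 (735), LINC02326 (637), LINC02882 (675), LINC01931 (640) and LINC00987 (771) do not. The limit thus favours such rows when they are high in 1 line, and their line differences are given as a description. In 14 of the 66 rows 1 line did not overlap the others in CPM. Among all rows tested 14.5% did so, and 24.7% among rows with at least 600 counts.

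LINC02979 on chromosome 18 (12031178 to 12032181, minus strand), 0.3 kb from the end of the coding gene IMPA2, had the widest distance between lines. It measured 78.8 and 60.6 CPM in mock and 56.6 and 68.9 CPM after arsenite in G3BP1, 39.04 and 41.1 CPM in mock and 44.4 and 40.5 CPM after arsenite in NES and 26.4 and 33.6 CPM in mock and 28.05 and 32.6 CPM after arsenite in NLS. The 3 lines did not overlap, with G3BP1 highest and NLS lowest, and arsenite did not pass (log2 difference 0.90, SE 0.13, adjusted p = 4.34e-09 for G3BP1 against the others). LINC02882 on chromosome 12 showed the same order, at 52.8 and 55.1 CPM in mock and 56.6 and 58.6 CPM after arsenite in G3BP1, 45.7 and 45.7 CPM in mock and 46.5 and 42.3 CPM after arsenite in NES and 36.5 and 29.01 CPM in mock and 39.4 and 33.9 CPM after arsenite in NLS (log2 difference 0.50, SE 0.13, adjusted p = 0.00135). In mock libraries alone its difference was 0.48 and did not pass.

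LINC02445, 334.4 kb from LINC02882, had the reverse order. It measured 72.99 and 62.6 CPM in mock and 61.4 and 58.2 CPM after arsenite in NLS, 47.1 and 34.9 CPM in mock and 51.5 and 44.9 CPM after arsenite in NES and 28.8 and 36.7 CPM in mock and 40.3 and 35.7 CPM after arsenite in G3BP1, and NLS was above all other libraries (log2 difference -0.59, SE 0.14, adjusted p = 0.000419 for G3BP1 against the others, log2 difference 0.51, SE 0.14, adjusted p = 0.00804 for NLS against NES). LINC02326, whose values stand above, was lower in G3BP1 than in the other lines (log2 difference -0.59, SE 0.15, adjusted p = 0.0013), by -1.11 in mock and by -0.15 after arsenite, where it did not pass. LINC01409 was also lowest in G3BP1, at 77.00 CPM ± 24.1 (SD, n = 4) while NES stood at 113 CPM ± 29.2 and NLS at 117 CPM ± 23.6 (log2 difference -0.58, SE 0.09, adjusted p = 2.44e-07). NES and NLS overlapped in it.

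The row of LINC01018, which carries the name of a liver-enriched RNA, was highest in G3BP1. That line gave 135 and 131 CPM in mock and 136 and 142 CPM after arsenite, against 106 and 96.8 CPM in mock and 72.3 and 109 CPM after arsenite in NES and 93.2 and 105 CPM in mock and 81.9 and 78.3 CPM after arsenite in NLS. All G3BP1 libraries lay above all others, whereas NES and NLS overlapped (log2 difference 0.57, SE 0.09, adjusted p = 6.12e-08). LINC00987 on chromosome 12 was highest in G3BP1 as well, at 54.8 and 72.6 CPM in mock and 63.4 and 69.7 CPM after arsenite, with 41.2 and 48.8 CPM in mock and 48.7 and 49.3 CPM after arsenite in NES and 42.7 and 29.01 CPM in mock and 50.03 and 49.2 CPM after arsenite in NLS (log2 difference 0.54, SE 0.12, adjusted p = 0.000284). LINC01931 on chromosome 2 was lowest in NES, at 39.04 and 35.6 CPM in mock and 32.2 and 20.3 CPM after arsenite, against 55.1 and 61.8 CPM in mock and 37.9 and 33.9 CPM after arsenite in NLS and 47.1 and 49.6 CPM in mock and 42.00 and 55.5 CPM after arsenite in G3BP1 (log2 difference 0.55, SE 0.16, adjusted p = 0.0149 for NLS against NES). That call was lost without the second NES arsenite library (0.45), without the second NLS mock library (0.45), with DESeq2 (0.55) and in arsenite libraries alone (0.42).

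**Figure D4:**
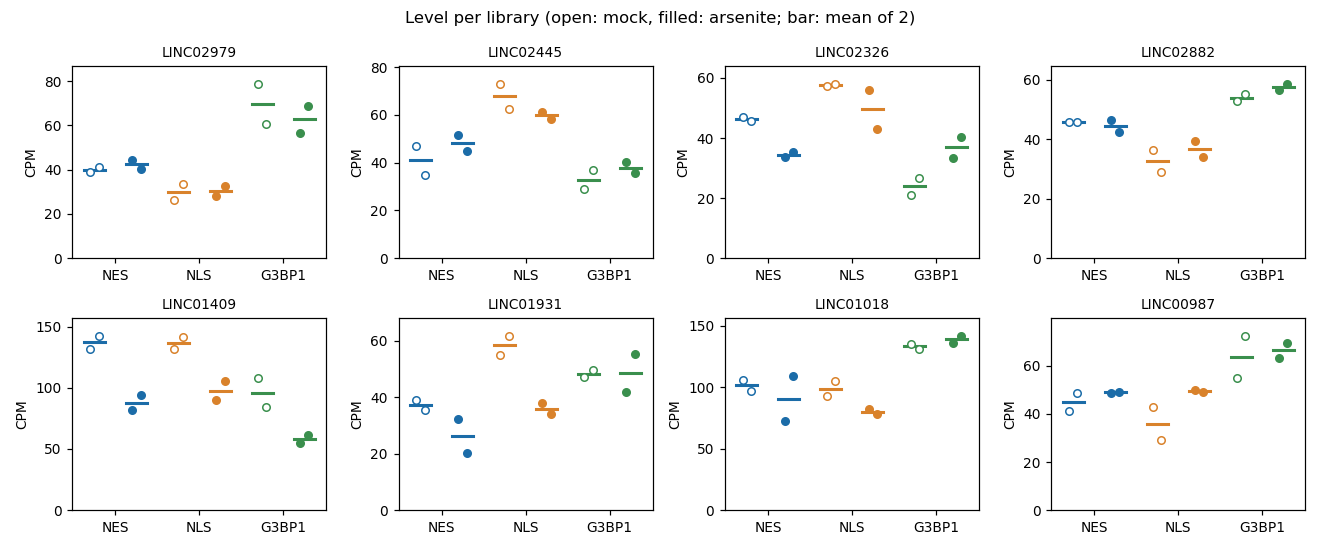
CPM in each library (y axis, from zero) for the 8 LINC rows with the widest distance between line means, by line (x axis), with mock as open points, arsenite as filled points and bars at the mean of 2 replicates. LINC02979 and LINC02882 stand highest in G3BP1 and lowest in NLS without overlap, and LINC02445 stands highest in NLS.

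Several of the most counted rows differed among the lines as well. LINC02067 was higher in G3BP1 (log2 difference 0.54, SE 0.04, adjusted p = 2.01e-23), as were LINC02893 (0.45), LINC01013 (0.47) and LINC00645 (0.19). LINC01504 and LINC01943 were highest in G3BP1 and lowest in NLS over both treatments, though in mock libraries LINC01943 averaged 223 CPM in NES and 214 CPM in G3BP1: NLS against NES gave -0.50 for LINC01504 and -0.43 for LINC01943, with adjusted p = 5.92e-10 and 5.24e-06 (edgeR). For LINC02669 no difference among lines passed over both treatments (adjusted p = 0.533, edgeR's joint test), with means of 437 CPM ± 165 in NES, 444 CPM ± 168 in NLS and 458 CPM ± 126 in G3BP1 (SD, n = 4, both treatments). In arsenite libraries alone it was higher in G3BP1 than in the other lines (log2 difference 0.22, SE 0.08, adjusted p = 0.0311, edgeR).

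The difference of the G3BP1 line can be looked at in mock and in arsenite libraries, which share no sample. It was called in 25 LINC rows in mock libraries (18.9% of all rows, 34.6% of rows with at least 600 counts) and in 24 in arsenite libraries (18.7% and 35.9%), and in 14 rows in both with 1 direction. Its sign was the same in 51 of 66 rows, and across rows the log2 differences had a Pearson correlation of 0.77. This correlation is a description over 66 rows that share 12 libraries and their scaling. For the 14 and the 51 rows no share of all rows is given, so these counts are a description as well. All 33 rows called over both treatments had 1 sign in both, which the joint call itself favours, and so had the 12 called for NLS against NES.

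**Figure D5:**
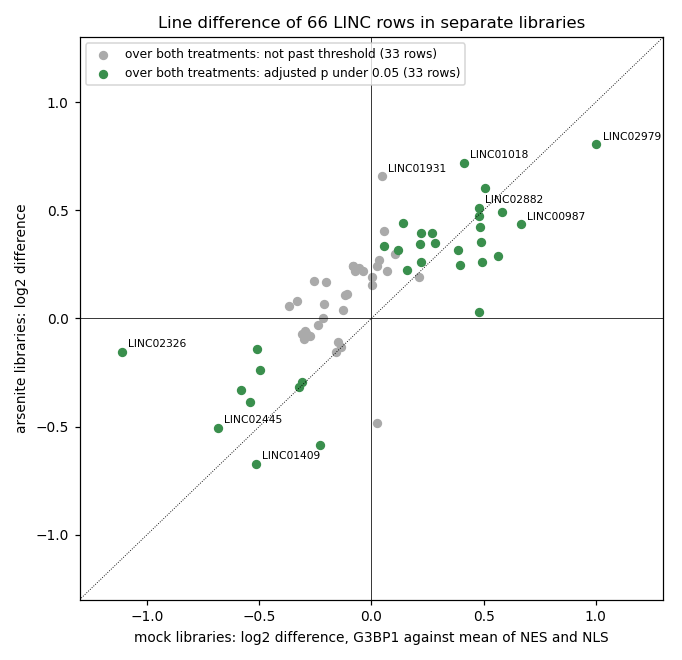
Log2 difference of the G3BP1 line from the mean of NES and NLS for each LINC row in mock libraries (x axis) and in arsenite libraries (y axis), with equality dotted. Green points are the 33 rows called over both treatments; LINC02979 lies at the upper right and LINC02326 far from zero in mock only.

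Rows of a like kind moved in both directions too. Of 163 tested LINC rows under 600 counts 21 rose and 29 fell after arsenite, with a median log2 fold change of -0.19. Of 851 tested rows ending in -AS1, named for the gene they are antisense to, 136 rose and 162 fell, with a median of -0.0194. Of 141 tested rows ending in -DT, divergent transcripts that start beside a gene's promoter, 25 rose and 16 fell, with a median of 0.0451. Among 17 tested long non-coding RNAs with names of their own, 3 rose and 4 fell. LINC rows near each other gave different calls: on chromosome 3, LINC01981 fell (-0.43), LINC01980, which overlaps it on the opposite strand, fell as well (-0.23, adjusted p = 0.0392, edgeR), and LINC01967, 82.6 kb away, did not pass (-0.10). On chromosome 12, LINC02394 fell (-0.42) and its neighbours LINC02882 and LINC02445 did not pass (0.07 and 0.05).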

How the data were processed

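RNA of 12 Huh-7.5 libraries was sequenced after ribosomal RNA depletion. Per the submitters' processing notes, the authors used Trim Galore, Subread, featureCounts and edgeR and the build GRCh38.p13, with no version or role given. The deposited values are whole-number counts per gene, and the gene annotation and strand setting are not given in the sources used here. Of 16 columns, 12 match a label and 4 match none and were not used. The 66 LINC rows, the gene lists and the tests were chosen with earlier results of these data known.

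Counts were tested with edgeR 4.0.16 in R 4.3.3 (quasi-likelihood test, TMM scaling, filterByExpr with a minimum count of 10 and a minimum total of 15, Benjamini-Hochberg adjustment over 13108 rows). Average arsenite effects and line differences came from an additive model of line and treatment with 8 residual degrees of freedom. Effects within a line, their differences and line differences within a treatment came from 1 mean per group with 6. The scripts were tested on simulated data. CPM use library sizes over the rows tested times the TMM factors. All 66 LINC rows passed the filter. Libraries held 1090308 to 1461067 counts, and all 6 replicate pairs differed beyond sampling noise. Named with values were the 8 LINC rows with most counts, the 6 largest rises and 6 largest falls, the 8 widest line differences and the 3 rows on either side of the limit of 600 counts. Further LINC rows, named for their position, count per kilobase or interaction p, were chosen after their values were seen. Positions came from GENCODE release 29 (GRCh38) by gene symbol and identifier, and promoters from RefSeq (GRCh38.p14). Alternatives were DESeq2 1.42.0 as the test and its size factors, total-count scaling, other filters, thresholds and count limits, a replicate block, and leaving out each library.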

Additional observations from a re-analysis of the deposited data

How the results depend on the processing

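Of 500 alternative values for the named LINC rows, 485 kept their direction and their side of the threshold, 13 lost and 2 gained a call, and 0 changed sign. The counts of LINC rows per comparison moved more. DESeq2 called 9 in NES, 8 in NLS and 6 in G3BP1 for the arsenite effect, against 21, 24 and 13 with edgeR, and the cause was not tested. It called 25 for the average effect, without LINC01931, LINC01980, LINC00513, LINC02951, LINC02915 and LINC01416. The shares of all rows that DESeq2 called in these comparisons are not given here. For the interaction, DESeq2 gave an unadjusted p under 0.05 in 1.65% of all rows tested and edgeR in 8.37%. An adjusted p under 0.01 left 13 in NES. A limit of 2-fold left 1 for the average effect, 1 in NES, 1 in NLS, 2 in G3BP1, and 0 for G3BP1 against the other lines and 0 for NLS against NES. With a limit of 300 counts, which gives 112 rows, 62 differed among the lines, 52 in G3BP1 and 24 between NLS and NES, as more rows entered. In arsenite libraries alone 24 differed among the lines and 6 between NLS and NES, with fewer samples.

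Leaving out each of the 12 libraries gave 27 to 32 calls for the average effect, 8 to 22 in NES, 13 to 25 in NLS, 7 to 13 in G3BP1 and 0 for differing effects. It gave 34 to 40 for any line difference, 30 to 33 for G3BP1 against the others and 10 to 14 for NLS against NES. Where this leaves 1 library in a group, that library is assumed to vary like the other groups. Same-numbered mock and arsenite libraries did not deviate together (correlations over 6521 rows: -0.0643 for NES, -0.0218 for NLS, 0.0159 for G3BP1). With a replicate block common to all lines the calls were 31 for the average effect, 21 (NES), 24 (NLS), 13 (G3BP1), 0 for differing effects, 38 for any line difference, 33 for G3BP1 and 13 for NLS against NES.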

Other observations

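The end of a protein-coding gene lies within 20 kb before 7 of the LINC rows on the opposite strand, a distance looked at after the values were seen. Of these, 3 rose after arsenite: LINC01465, 1.3 kb from the end of MON2, LINC01504, 8.2 kb from ZFAND5, and LINC00847, 11.9 kb from ZFP62. Another 2 fell, among them LINC00242, 7.2 kb from ERMARD, and LINC02979 and LINC01018 did not pass. Of the other 58 placed LINC rows 6 rose and 20 fell. Among the other tested rows that GENCODE types as lincRNA, 105 lay so near the end of a coding gene, and 38 of them rose and 15 fell, with a median log2 fold change of 0.238. Of the 675 that did not, 79 rose and 132 fell, with a median of -0.141. With the end of a coding gene on the same strand within 20 kb, 14 of 100 rose and 17 fell, with a median of -0.117. These are counts with no test, and their cause was not tested.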
